A study of Homo sapiens with 12 samples.

Results

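Peroxiredoxins are thiol peroxidases that reduce hydrogen peroxide, and the human genome encodes 6 of them, PRDX1 to PRDX6. The catalytic cysteine of each enzyme is oxidised by the peroxide. In most family members thioredoxin then reduces the enzyme again, and thioredoxin reductase restores thioredoxin at the cost of NADPH. PRDX1 and PRDX2 are mainly cytosolic, PRDX3 is mitochondrial, PRDX4 resides in the endoplasmic reticulum, PRDX5 is spread over several compartments, and PRDX6 relies on glutathione rather than thioredoxin. The family was read from 2 tables of polyadenylated RNA as the rows with these gene names, which are 6 of 59490 features whose name occurs once, out of 60656 features in all. PRDX2 was selected on its fall under decitabine in resistant cells, that is on its values in the 6 libraries of that line, so those values are given as a description and with no test. A further feature, AC018761.2, was added because the annotation places it opposite PRDX2 and it is abundant.

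The cells were OCI-LY1, an established diffuse large B-cell lymphoma line, as resistant cells (OCI-LY1R) and as the parental line they came from. OCI-LY1R was obtained by exposing the parental line to rising doses of venetoclax, an inhibitor of the survival protein BCL2, up to 1 µM. Each line received decitabine, a cytidine analogue that lowers DNA methylation, at 1 µM for 3 days, or DMSO as vehicle. The 4 groups were resistant decitabine, resistant vehicle, parental decitabine and parental vehicle, with 3 libraries each. The resistant libraries are lettered a to c because the numbered names of their columns could not be tied to single samples. Whether libraries of a group came from separate cultures is not stated in the labels. The tests therefore weigh differences against the spread of these libraries, which may be technical. The values of each line were deposited separately, so a difference between lines cannot be told apart from one of handling or processing.

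Values are TPM, transcript abundances corrected for length and scaled to a sum of 1000000 in every library, so sequencing depth is unknown. Parental decitabine replicate 3 stood apart from the other 11 libraries and is shown apart throughout. The 8 B-cell markers examined summed to 3271 TPM there, against 34.4 to 194.0 TPM in the 11 others. Markers of T cells, myeloid cells and erythroid cells were each under 5 TPM in all 12 libraries, and 2 genes of each of these lists were at 0 in all 12. Of 10830 coding features at 1 TPM or more in that replicate, 6826 (63.0%) averaged under 1 TPM in the 11 others. Features annotated as antisense took 0.298% of all TPM in that replicate and 34.9% to 48.7% in the 11 others, and coding features took 89.4% there and 26.6% to 32.2% in the others. Reads may thus have been assigned to opposite strands in that replicate and in the 11 others, which was not tested. If so, the level listed for a peroxiredoxin in the 11, a value of 0 included, may not be that of the gene's own RNA, and this limit applies to every fold change and test below. In bulk RNA, fewer cells of a type and less RNA per cell cannot be told apart, and this holds for every level below.

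The sequences at the 2 ends of the overlap show why PRDX2 and AC018761.2 have to be read together. PRDX2 lies on the minus strand at chr19:12796820-12801859 and AC018761.2, annotated as an antisense RNA, on the plus strand at chr19:12796823-12801849 (GENCODE 29, GRCh38). AC018761.2 has 2 exons of 200 and 96 bases. All 296 of these bases lie opposite annotated PRDX2 exons, and all of them opposite untranslated sequence. The first 2 lines below are the same 30 positions, chr19:12796823-12796852, read on the minus strand as the end of PRDX2 and on the plus strand as the start of AC018761.2. Capitals mark the polyadenylation signal AATAAA of PRDX2 and its reverse complement. The third line is the splice junction of AC018761.2, with the end of exon 1 in lower case and the start of exon 2 in capitals.
PRDX2 3′ end: aggtaaccAATAAAgtattagggaaaggtg
AC018761.2 start: cacctttccctaatacTTTATTggttacct
AC018761.2 exon junction: caggtgggggcacagGCTAGACGCACGGAC
The reverse complement of this junction is in 0 of 6 annotated PRDX2 transcripts. Searched on the transcript strand only, AATAAA occurs in the same window, 30 bases ending 3 bases before the transcript end, in 26548 of 83129 coding transcripts (31.9%). The strand setting with which the reads were assigned is not given in the sources used here, so RNA of PRDX2 and RNA of AC018761.2 cannot be told apart in the exons they share.

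**Figure D1:**
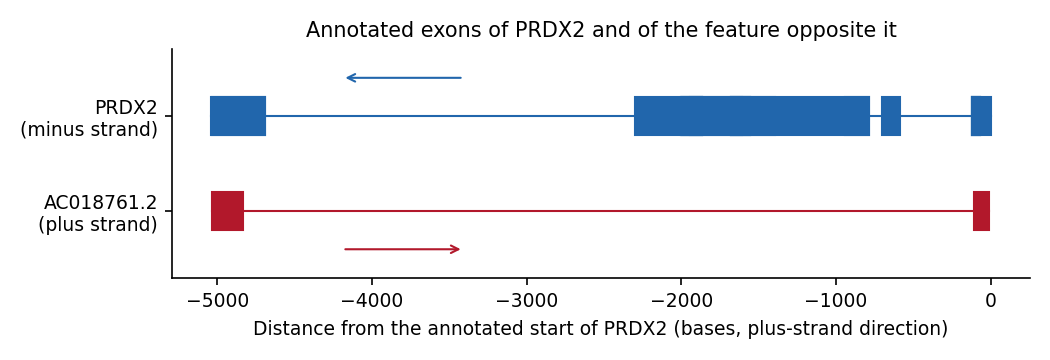
The PRDX2 locus against distance from the annotated PRDX2 start in bases, with boxes for the exons of all annotated transcripts together, lines for introns and arrows for the direction of transcription. Both exons of AC018761.2 lie opposite exons at the outer ends of PRDX2.

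PRDX2, an abundant cytosolic peroxidase best known from red blood cells, was either at 0 or at 619 TPM or more in each library. It was listed at 0 in all 3 resistant decitabine libraries and at 625, 749 and 1387 TPM in the 3 resistant vehicle libraries. These groups do not overlap, which is the pattern PRDX2 was chosen for. Among all 8579 features tested in this comparison, 308 (3.59%) were called by limma and 8.58% were lower under decitabine without overlap, and nothing is read from PRDX2's place among them. No fold change is given because one group is listed at 0.

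In parental cells the same switch between 0 and a high value occurred inside each treatment. Parental decitabine replicates 1 and 2 had 619 and 0 TPM of PRDX2, against 692, 0 and 1552 TPM in the 3 parental vehicle libraries. The groups overlapped, and the log2 difference of -2.04 (SE 4.48) had an adjusted p = 0.836 by limma. Its direction rests on 1 library, since it was 2.60 (SE 5.53) without parental decitabine replicate 2. Replicate 3 of parental decitabine had 714 TPM.

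Between the lines under vehicle, the 625 to 1387 TPM of resistant cells enclosed the 692 TPM of parental vehicle replicate 1 and lay below the 1552 TPM of replicate 3. No test is given, since the resistant vehicle values were used in the choice. The log2 difference of 3.08 (SE 2.81) was -0.26 (SE 0.50) without parental vehicle replicate 2, the library at 0. Over the 11 libraries PRDX2 was at 0 in 5 and above 0 in 6.

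Other abundant features showed the same switch. Of 942 features averaging at least 100 TPM over the 11 libraries, 58 (6.16%) had a library at 0, and all 58 had a 0 and a value above 0 inside 1 group. For 39 of them (4.14%) every library was at 0 or at 100 TPM or more. An exact 0 in such a table can be a failed estimate, so these libraries are described as listed at 0.

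AC018761.2 was far more abundant than PRDX2 per length in the 11 libraries and was at 0 in parental decitabine replicate 3. The resistant decitabine libraries had 5042, 5605 and 4227 TPM, against 6611, 8236 and 6468 TPM in the resistant vehicle libraries. All 3 decitabine values were below all 3 vehicle values, as for 8.58% of the features tested in this comparison. The means were 4958 ± 693 and 7105 ± 982 TPM (SD, n = 3 each), a log2 difference of -0.52 (SE 0.15), given with no test because it comes from the contrast that chose PRDX2.

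In parental cells decitabine replicates 1 and 2 had 5512 and 6063 TPM of AC018761.2, against 7445, 8043 and 7542 TPM in the vehicle libraries. Again no decitabine value reached a vehicle value, which 11.6% of the 8122 features tested also showed in this direction. The log2 difference was -0.41 (SE 0.07) with an adjusted p = 0.085 by limma, so it did not pass the threshold of 0.05. After median-ratio scaling between libraries it was -0.60 (SE 0.06) with an adjusted p = 0.0342 by limma. Over its 11 alternatives the adjusted p lay between 0.0342 and 0.594. Under vehicle the 6468 to 8236 TPM of resistant cells overlapped the 7445 to 8043 TPM of parental cells, with a log2 difference of -0.12 (SE 0.11) and an adjusted p = 0.605 by limma. The response in resistant cells minus that in parental cells was -0.11 on the log2 scale (SE 0.19).

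**Figure D2:**
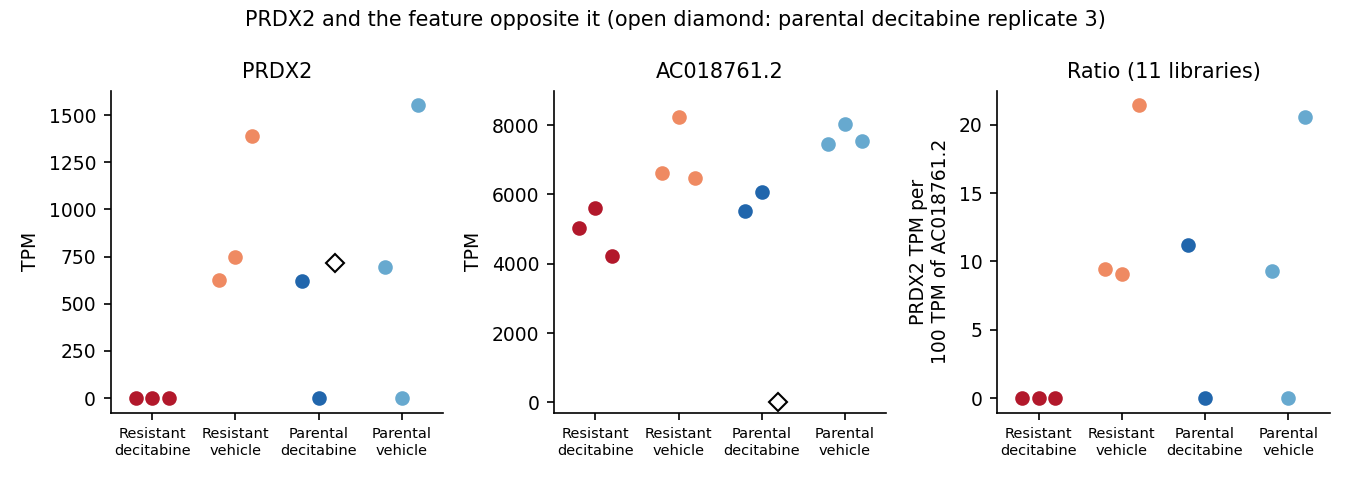
TPM of PRDX2 and of AC018761.2 and the PRDX2 level per 100 TPM of AC018761.2, with one point per library by group and parental decitabine replicate 3 as an open diamond in the first and second panels. PRDX2 is at 0 in 5 of 11 libraries while AC018761.2 stays between 4227 and 8236 TPM in all 11.

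The level of AC018761.2 did not separate libraries with PRDX2 from libraries without it. It ranged from 4227 to 8043 TPM in the 5 libraries with PRDX2 at 0 and from 5512 to 8236 TPM in the 6 others. Per 100 TPM of AC018761.2 there were 9.46, 9.10 and 21.4 TPM of PRDX2 in the resistant vehicle libraries, 11.2 TPM in parental decitabine replicate 1, and 9.30 and 20.6 TPM in parental vehicle replicates 1 and 3. Thus 4 of the 6 ratios lay between 9.10 and 11.2, and the other 2 were 20.6 and 21.4. Across the 11 libraries the Pearson r between the log2 levels was 0.505, given as a description of libraries that share 1 pipeline.

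PRDX1, the other abundant cytosolic peroxidase, was above 0 in all 12 libraries but varied several-fold inside 3 of the 4 groups. The resistant decitabine libraries had 304, 222 and 1090 TPM, against 228, 1325 and 234 TPM in the resistant vehicle libraries. One library of each group was high, at 1090 and 1325 TPM, and the groups overlapped. The log2 difference was 0.02 (SE 0.90), given with no test.

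In parental cells PRDX1 had 1007 and 877 TPM in decitabine replicates 1 and 2, against 793, 157 and 155 TPM in the vehicle libraries. Both decitabine values were above all vehicle values, as for 27.9% of all features tested, but vehicle replicate 1 lay close to the decitabine libraries. The log2 difference of 1.80 (SE 0.82) had an adjusted p = 0.337 by limma. Without vehicle replicate 1 it was 2.59 (SE 0.11) with an adjusted p = 0.0395 by limma, and over all 11 alternatives the adjusted p ranged from 0.0395 to 0.594. Parental decitabine replicate 3 had 421 TPM.

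Under vehicle the 228 to 1325 TPM of PRDX1 in resistant cells overlapped the 155 to 793 TPM in parental cells, with a log2 difference of 0.62 (SE 0.96) and an adjusted p = 0.759 by limma. The response to decitabine in resistant cells minus that in parental cells was -1.79 on the log2 scale (SE 1.36).

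The spread of PRDX1 went with that of its overlapping neighbour. PRDX1 lies on the minus strand at chr1:45511036-45523047, and MMACHC, which processes vitamin B12, lies on the plus strand at chr1:45500053-45513382. They share 379 exon bases, which are 24.9% of PRDX1's 1522 exon bases and 7.16% of MMACHC's 5296. MMACHC had 190, 270 and 29.1 TPM in the resistant decitabine libraries, against 281, 13.9 and 300 TPM in the resistant vehicle libraries. In parental cells it had 8.999 and 59.3 TPM in decitabine replicates 1 and 2, against 16.8, 184 and 194 TPM in the vehicle libraries. Thus the 5 libraries with the most PRDX1, at 793 to 1325 TPM, were the 5 with the least MMACHC, at 8.999 to 59.3 TPM. In the 6 others PRDX1 lay between 155 and 304 TPM and MMACHC between 184 and 300 TPM.

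Over the 11 libraries the Pearson r of the log2 levels was -0.909, the lowest of the 8504 features set against PRDX1. The libraries share 1 pipeline and the genes share exon bases, so this is a description. Parental decitabine replicate 3 had 9.77 TPM of MMACHC. How reads of the shared bases were divided between these genes was not tested. MMACHC did not pass the test in parental cells, where the log2 difference was -1.81 (SE 1.43) with an adjusted p = 0.533 by limma.

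The remaining 4 members were at or near 0 in the 11 libraries and at 36.8 TPM or more in parental decitabine replicate 3, the library that also differed from the 11 in the antisense and coding shares given above. PRDX3 (chr10:119167703-119178833, minus strand), the mitochondrial enzyme, was at 0 in all 11 and at 54.7 TPM in that replicate. PRDX5 (chr11:64318088-64321811, plus strand) was likewise at 0 in all 11 and reached 268 TPM there. PRDX4 (chrX:23664262-23686399, plus strand), which uses peroxide in the endoplasmic reticulum during the oxidative folding of proteins, had 36.8 TPM in that replicate, 0.832 TPM in resistant vehicle library a, and 0 in the 10 others.

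PRDX6 (chr1:173477266-173488807, plus strand), which also has phospholipase activity, had 67.3 TPM in parental decitabine replicate 3, 0.499 TPM in resistant decitabine library b, and 0 in the 10 others. No other annotated feature overlaps these 4 genes. They averaged under 1 TPM in the fitted libraries, so only 2 of 6 members, PRDX1 and PRDX2, were tested in each comparison.

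**Figure D3:**
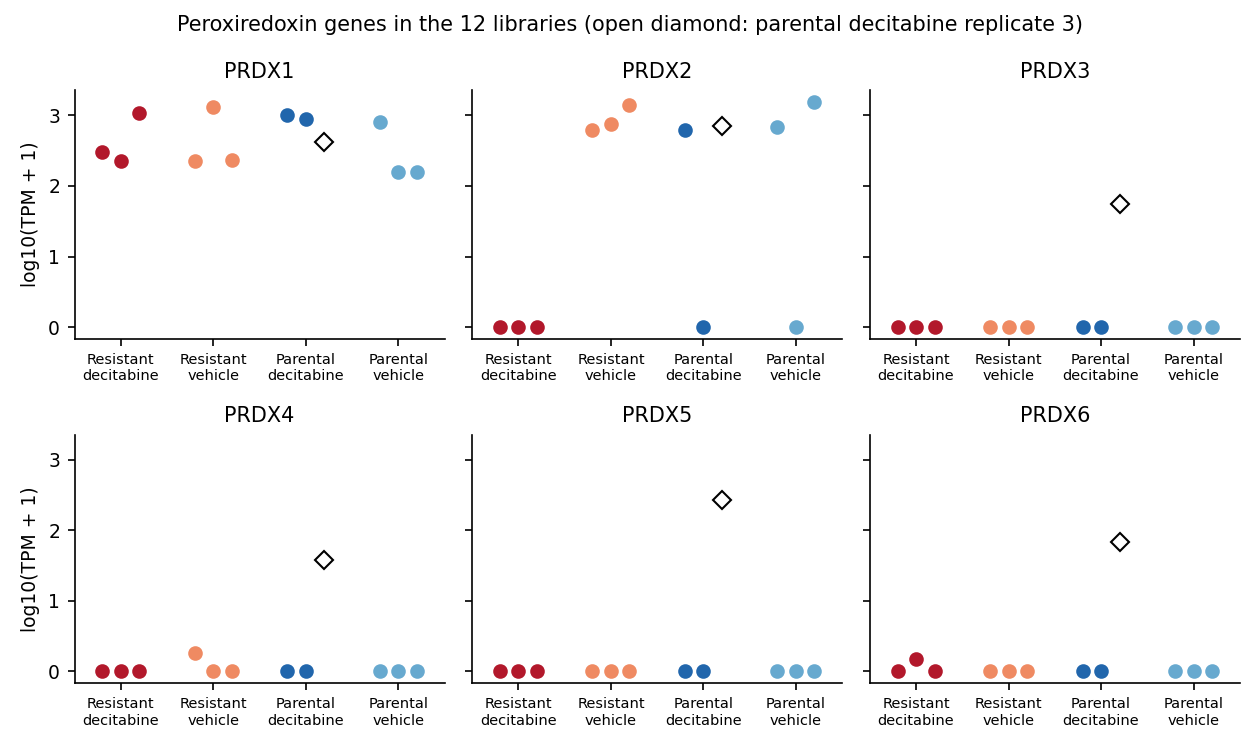
Levels of the 6 peroxiredoxins as log10(TPM + 1), one panel per gene and one point per library by group, with parental decitabine replicate 3 as an open diamond. PRDX3, PRDX4, PRDX5 and PRDX6 lie between 36.8 and 268 TPM in that replicate and at or below 0.832 TPM in the 11 others.

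By limma, 0 of the 2 tested members were called for decitabine against vehicle in parental cells, where 1.86% of all features were, and 0 had an unadjusted p under 0.05. Under vehicle, PRDX1 was not called between resistant and parental cells, where 2.8% of features were. PRDX2 is not counted there, in resistant cells or for the difference of the responses, since all 3 use the libraries on which it was selected.

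Summed over the 6 members, peroxiredoxin RNA came to 304, 222 and 1090 TPM in the resistant decitabine libraries, against 854, 2074 and 1621 TPM in the resistant vehicle libraries. In parental cells the sum was 1626 and 877 TPM in decitabine replicates 1 and 2, against 1486, 157 and 1707 TPM in the vehicle libraries. The sums overlapped in both lines, and in the 11 libraries they consisted of PRDX1 and PRDX2 but for at most 0.832 TPM. In parental decitabine replicate 3 the sum was 1562 TPM, of which PRDX2 made up 45.7% and PRDX1 26.9%.

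HOOK2 and JUNB, which lie within 50 kb of PRDX2, were above 0 in all 12 libraries. HOOK2, which links cargo to microtubules, spans PRDX2 on the same strand but shares 0 exon bases with it. It had 214, 247 and 181 TPM in the resistant decitabine libraries, all 3 with PRDX2 at 0, against 177, 177 and 168 TPM in the resistant vehicle libraries. In the 2 parental libraries with PRDX2 at 0 it had 251 and 243 TPM, beside 202 TPM in the other parental decitabine library and 193 and 273 TPM in the other parental vehicle libraries. JUNB, a subunit of the AP-1 transcription factor, lay between 26.3 and 44.6 TPM in the 11 libraries. Parental decitabine replicate 3 had 19.4 TPM of HOOK2 and 66.2 TPM of JUNB. HOOK2 and JUNB passed the test in none of the 4 comparisons.

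The other antisense feature named within 50 kb, AC020934.1 (chr19:12825711-12832983, plus strand), did change in its listed level. It lies inside RTBDN, which is on the minus strand (chr19:12825478-12835428), and from which strand its reads came was not tested. AC020934.1 had 62.4, 67.1 and 56.9 TPM in the resistant decitabine libraries, against 22.5, 18.3 and 18.9 TPM in the resistant vehicle libraries. This was a log2 rise of 1.60 (SE 0.16) with an adjusted p = 0.0117 by limma. Under vehicle it was lower in resistant cells than in parental cells, which had 83.8, 97.7 and 103 TPM, by a log2 difference of -2.20 (SE 0.15) with an adjusted p = 0.0041 by limma. Both calls held under each of their 10 alternatives.

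In parental cells AC020934.1 had 123 and 137 TPM in decitabine replicates 1 and 2, a log2 difference of 0.46 (SE 0.14) from vehicle with an adjusted p = 0.198 by limma. The response in resistant cells minus that in parental cells was 1.14 on the log2 scale (SE 0.21), with an adjusted p = 0.08 by limma and 0.0448 after median-ratio scaling. It had 0.130 TPM in parental decitabine replicate 3. AC018761.3, a long intergenic RNA annotated nearby on the minus strand, lay between 0 and 12.5 TPM in the 11 libraries and passed no test. RTBDN, annotated opposite AC020934.1, is a riboflavin-binding protein gene. It was at 9.29 TPM in resistant decitabine library a and at 4.85 TPM in resistant vehicle library c. Parental decitabine replicate 3 had 19.1 TPM of RTBDN, and the other libraries were at 0.

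The wider peroxide defence was followed in 4 lists holding 64 genes: the thioredoxin system (15 genes), the glutathione system (21), other antioxidant enzymes (15), and NRF2 control with NADPH supply (13). As with PRDX3 to PRDX6, most of them were measurable mainly in parental decitabine replicate 3. There 56 of 64 genes reached 1 TPM, whereas 19 averaged 1 TPM or more in the 11 others. Of the 56, 38 (67.9%) averaged under 1 TPM in the 11, beside 63.0% of all coding features. The median gene had 22.4 TPM in that replicate and 0.172 TPM in the 11 others.

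The direct partners of the peroxiredoxins followed this pattern. In parental decitabine replicate 3, TXN, the thioredoxin that reduces cytosolic peroxiredoxins, had 89.4 TPM, its mitochondrial counterpart TXN2 had 168 TPM, and SRXN1, which repairs over-oxidised peroxiredoxins, had 24.6 TPM. TXN did not exceed 1.69 TPM in any of the 11 others, and TXN2 was at 0 in all of them. Among other peroxide-removing enzymes, the glutathione peroxidase GPX4 had 304 TPM and catalase (CAT) 53.0 TPM in that replicate. Not all such enzymes followed the pattern. The glutathione peroxidase GPX3 had 0.241 TPM in that replicate, against 5.49 to 26.6 TPM in the 11 others. GPX2 had 0.0796 TPM there, against 0 to 2.68 TPM in the 11 others.

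**Figure D4:**
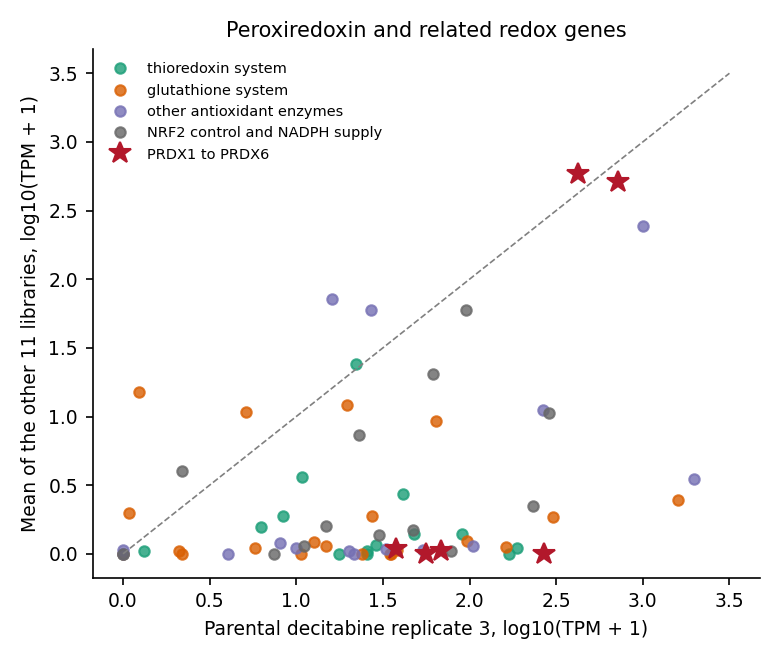
Mean of the other 11 libraries against parental decitabine replicate 3, both as log10(TPM + 1), for the 64 genes of the 4 lists and the 6 peroxiredoxins (stars). The dashed line marks equal levels, and 38 listed genes lie at 1 TPM or more on the horizontal axis with a mean under 1 TPM on the vertical axis.

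Few of the listed genes passed a test. For decitabine against vehicle in resistant cells, 1 of 20 tested genes rose and 0 fell, where 2.83% of all features rose, and the median log2 difference of the tested genes was 0.19 beside 0.21 for all features. The gene was MGST2, a microsomal glutathione transferase, in the glutathione list (1 of 5 tested). It had 13.5, 10.9 and 12.8 TPM in the resistant decitabine libraries, against 4.14, 3.51 and 3.67 TPM in the resistant vehicle libraries, a log2 rise of 1.49 (SE 0.23) with an adjusted p = 0.0313 by limma. None of the 4 tested genes of the thioredoxin system, the 5 other antioxidant enzymes or the 6 genes of NRF2 control and NADPH supply passed.

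Under vehicle, resistant cells had 1 of 21 tested genes higher and 2 lower than parental cells, where 1.73% and 1.07% of all features were, with a median log2 difference of 0.01 beside 0.11 for all features. TXNRD2, the mitochondrial thioredoxin reductase, was the 1 of 3 tested thioredoxin genes that was higher, with 5.31, 2.90 and 3.93 TPM in resistant vehicle libraries, against 0.222, 0 and 0 TPM in parental vehicle libraries (log2 difference 2.21, SE 0.34, adjusted p = 0.0372 by limma). MGST2 was lower, against 11.5, 9.30 and 13.3 TPM in parental vehicle libraries, by a log2 difference of -1.36 (SE 0.23, adjusted p = 0.0472 by limma). MAFF, a small partner protein of NRF2, was also lower, with 0, 0.147 and 0.149 TPM in resistant vehicle libraries, against 4.22, 8.17 and 5.91 TPM in parental vehicle libraries (log2 difference -2.66, SE 0.34, adjusted p = 0.0247 by limma).

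TXNRD2 and MAFF each passed the filter on low values only through the group in which they were high, so a difference in them was favoured by the filter. Their adjusted p values, and their part in the counts of genes higher and lower under vehicle, are therefore a description. Neither gene was tested under the filter of a mean of at least 5 TPM. With a pseudocount of 0.1 their log2 differences were 4.77 for TXNRD2 and -5.03 for MAFF.

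These 4 calls rest on every library of their fits. Leaving out any 1 of the 6 libraries ended each call, with an adjusted p by limma of 0.0579 to 0.1 for MGST2 in resistant cells, 0.0642 to 0.125 for TXNRD2, 0.0694 to 0.154 for MGST2 and 0.0503 to 0.0978 for MAFF under vehicle. Fitting with no filter on low values also ended each of them. For decitabine against vehicle in parental cells 0 of 20 listed genes were called by limma, beside 1.86% of all features, and 1 had an unadjusted p under 0.05. That gene was MGST2, with 17.4 and 21.6 TPM in parental decitabine replicates 1 and 2, against 9.30 to 13.3 TPM in vehicle libraries. Its log2 difference was 0.73 (SE 0.23) with an adjusted p = 0.218 by limma. For the difference of the responses 0 of 19 were called by limma, beside 0.364% of all features, and 2 had an unadjusted p under 0.05. The median log2 difference of the listed genes in parental cells was -0.17, beside 0.21 for all features, which median-ratio scaling brought to 0.04.

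Some listed genes had signal in all of the 11 libraries. TXNDC17, a thioredoxin-like protein, lay between 15.1 and 29.96 TPM in the 11 libraries and had 21.0 TPM in parental decitabine replicate 3. SOD2, the mitochondrial superoxide dismutase that produces hydrogen peroxide, had 63.3, 55.8 and 53.3 TPM in resistant decitabine libraries, against 94.2, 70.6 and 53.8 TPM in resistant vehicle libraries. Neither TXNDC17 nor SOD2 passed the test in any comparison.

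FTH1, the heavy chain of the iron store ferritin, switched between 0 and a high value as PRDX2 did, but in other libraries. It had 347, 519 and 531 TPM in resistant decitabine libraries, against 303, 0 and 399 TPM in resistant vehicle libraries. In parental cells it had 0 and 303 TPM in decitabine replicates 1 and 2, against 0, 274 and 0 TPM in vehicle libraries. All 3 resistant decitabine libraries, where PRDX2 was at 0, were thus above 300 TPM for FTH1, and parental vehicle replicates 1 and 3, where PRDX2 was high, were at 0. Resistant vehicle libraries a and c were instead high for both, with 303 and 399 TPM of FTH1 beside 625 and 1387 TPM of PRDX2. FTH1 passed no test, and it had 1007 TPM in parental decitabine replicate 3.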

How the data were processed

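The deposited tables give TPM per gene, made by the authors from stranded mRNA libraries, per the labels' protocols. The build hg38 and the tools HISAT2, StringTie and DESeq2 are named in the submitters' processing notes. Which tool versions, annotation and counting strand were used is not given in the sources used here. Both tables list 60656 features. The 1166 with repeated names were left out, and 0 columns of other samples were present. Among the parental values, 0 of 6 member names stand beside their own identifier, so features were read by name. Of the 58438 parental identifiers found in the annotation, 50.6% belong to the name beside them. Whether the parental values belong to the names or to the identifiers was not tested. TPM plus a pseudocount of 1 were put on a log2 scale and fitted by limma 3.58.1 with an intensity trend (R 4.3.3). Features had to average 1 TPM or more over the libraries fitted. Benjamini-Hochberg adjustment covered every such feature, and calls needed an adjusted p under 0.05. Fold changes on this scale understate changes of low genes. The script was tested on simulated data. Parental decitabine replicate 3 was left out of the fits. The model of the difference used the 11 other libraries.

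The genes named were the members, features overlapping their exons, their pseudogenes at 1 TPM or more in any library, features within 50 kb of PRDX2 averaging 1 TPM, listed genes that were called or were among the highest, and the 5 features most like PRDX2 and AC018761.2. The members and lists were chosen with earlier results of these data known. TXN, TXN2, SRXN1, GPX2, GPX3, GPX4 and CAT, given for parental decitabine replicate 3, were picked after their values were seen. Alternatives were another pseudocount, other filters, median-ratio scaling, a replicate block, replicate 3 included, and leaving out each library. Annotation and transcript sequences were from GENCODE 29, and promoters from RefSeq. One listed gene is not reported here.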

Additional observations from a re-analysis of the deposited data

Results flagged for a closer look

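PRDX3, PRDX4, PRDX5 and PRDX6 had signal in parental decitabine replicate 3, the library outside the comparisons, above their level in the vehicle libraries. PRDX3 had 54.7 TPM, PRDX5 268 TPM and PRDX6 67.3 TPM there, while all 6 vehicle libraries were at 0 for these genes. PRDX4 had 36.8 TPM there, against at most 0.832 TPM in a vehicle library. TXN and TXN2, at 89.4 and 168 TPM, moved with them in this library, and AC018761.2, at 0, moved the other way. Features annotated as antisense took 0.298% of TPM in this library and 34.9% to 48.7% in the 11 others. Whether strand was assigned oppositely was not tested.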

How the results depend on the processing

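Of the members, 0 were called in parental cells in the main analysis and 0 to 1 when each library was left out. The 1 was PRDX1 without parental vehicle replicate 1. Under vehicle PRDX1 was not called under any of its 10 alternatives (adjusted p by limma 0.499 to 0.935). With the replicate number as a replicate block in parental cells 0 members were called, PRDX1 being 1.41 on the log2 scale (adjusted p = 0.512 by limma), and 0 features were called against 151. Parental vehicle replicate 3 has no partner in this fit and does not inform the estimate, which was also 1.41 without that library. The block leaves little to estimate the spread from, so the lack of calls decides nothing. Same-numbered parental libraries did not deviate together (r = -0.011 and -0.012), so the numbers are not taken as pairs. The block was not run in resistant cells, whose numbered columns could not be tied to single samples.

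The count of all features called in parental cells was 151, and it was 35 with no filter, 0 with replicate 3 included and 14 to 264 leaving out a library. In resistant cells it was 308, with 73 under no filter, 194 at a mean of at least 5 TPM and 90 to 197 leaving out a library. Under vehicle it was 217, with 68 under no filter and a lowest value of 58 without parental vehicle replicate 2. For the difference it was 31, with 7 under no filter, 1 with replicate 3 included and 12 to 47 leaving out a library. With replicate 3 included, AC018761.2 was -4.57 on the log2 scale in parental cells. Without depth, counting error of the TPM is unknown.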

Other observations

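Pseudogenes of the family contributed little. Of 10 named after a member, 3 reached 1 TPM in any library (PRDX2P1, PRDX3P1 and PRDX3P2), and the highest value was 6.71 TPM. PRDX3P1 had 4.77, 4.53 and 6.56 TPM in resistant decitabine libraries, against 3.46, 0 and 6.71 TPM in resistant vehicle libraries, while PRDX3 itself was at 0 in all of them. Reads shared between such copies may have been split between them by the counting, which makes these levels uncertain.

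The features most like PRDX2 over the 11 libraries, by Pearson r of log2 levels among 8505 features, were NPIPB2 (r = 0.959), AL589765.4 (0.927), RNU6-415P (0.876), DNAJC27-AS1 (0.873) and GSTP1 (0.836). All 5 were low, with maxima of 5.81 TPM for GSTP1 to 23.6 TPM for NPIPB2, and all had libraries at 0. The 11 include the resistant libraries on which PRDX2 was chosen, so the r values with PRDX2 are given as a description. GSTP1, a glutathione transferase, had 1590.5 TPM in parental decitabine replicate 3. The features most like AC018761.2 were AC008537.4 (r = 0.958), AC003101.3 (0.951), Z92544.1 (0.951), RPS28 (0.945), a small ribosomal subunit protein gene, and SHLD2 (0.942). PRDX1 and PRDX2 had an r of 0.037.

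Promoter windows of 300 bases were at hand for 4 of 6 members (RefSeq, GRCh38.p14), and CG dinucleotides were counted in them. The PRDX2 window holds 46 CG, and 2.89% of 35116 windows, whose median is 14, hold as many or more. PRDX4 has 35 (14.1% hold as many or more), PRDX5 has 32 and 27 in its 2 windows (18.9% and 28.2%), and PRDX3 has 18 (44.5%). CG reads the same on both strands. DNA methylation was not analysed here.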
